A study of Mus musculus with 3 samples.

Results

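The visceral endoderm lipoprotein and transport genes were followed across 3 genotypes of the E6.5 mouse embryo. They are *Afp*, *Ttr*, *Rbp4*, *Apom*, *Apoa1*, *Apoa4*, *Apob*, *Apoe*, *Amn* and *Cubn*, 10 of the 23421 genes of the expression table. They were chosen by symbol, as secreted carriers and endocytic receptors of the visceral endoderm, with earlier results of these data known. All 10 had an FPKM (fragments per kilobase of transcript and scaled for the size of the library) of at least 10 in every library.

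Strand-specific total RNA-seq was carried out on wild type, tw18/+ and tw18/tw18 embryos obtained by mating tw18/+ mice, with the strain labelled 129/SvEv, although the study describes the background of its embryos as not inbred. The tw18 chromosome carries a large deletion on chromosome 17 that removes many genes, *Ppp2r1a* among them. The study reports that a *Ppp2r1a* transgene rescued tw18/tw18 embryos, and it assigns the lethal phenotype to the loss of that gene. No rescued or *Ppp2r1a* knockout embryo is among the libraries used here, so these libraries alone cannot assign a difference in expression to one of the deleted genes. *Ppp2r1a*, a scaffold subunit of the phosphatase PP2A, measured 146 FPKM in wild type, 81.7 in tw18/+ and 12.8 in tw18/tw18, which follows the order of the labels and is not 0 in the homozygote. There was 1 library per genotype and the number of embryos in it is not given in the sources used here, so no test between genotypes was possible and every difference below is a difference between libraries. In its in situ staining at E6.5 the study describes the mutant embryos as slightly younger in stage, so stage and genotype cannot be told apart here. The labels name the tissue as epiblast, while the methods of the study describe RNA from the embryo proper, in which the epiblast is still wrapped in visceral endoderm. Markers of both tissues were read, and *Rhox5*, a homeobox gene of visceral endoderm, measured 81.1 FPKM in wild type, 87.9 in tw18/+ and 154.8 in tw18/tw18. It is 1 of 8 listed visceral endoderm markers, of which 7 were higher and 1 was lower in tw18/tw18 than in wild type.

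The visceral endoderm is the absorptive and secretory epithelium that surrounds the epiblast before the placenta and yolk sac circulation work. It takes up maternal proteins and lipids through endocytic receptors on its apical face, breaks them down, and secretes lipoproteins and carrier proteins toward the epiblast. Many of the genes it uses are those of the later liver and yolk sac, under control of the HNF4, GATA and FOXA families of transcription factors.

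The promoters of 4 of the genes are shown first. *Afp* was the only one of the 10 with its lowest level in tw18/tw18, *Apoa1* and *Apoa4* are neighbours in one gene cluster with unequal ratios, and *Apob* encodes the protein on which lipoproteins are built. The sequences are from RefSeq on GRCm38.p6, plus strand, written 5′ to 3′, and each ends 1 base before the more upstream of the RefSeq and GENCODE starts. Capitals mark matches to 3 short motifs. These are the TATA box with the letters TATAAA, a FOXA motif with the letters TGTTTGC and a partial HNF4 motif with the letters CAAAGT. In *Apob* the FOXA motif lies on the minus strand, and so its complement is in capitals.
Afp, chr5:90490564-90490713: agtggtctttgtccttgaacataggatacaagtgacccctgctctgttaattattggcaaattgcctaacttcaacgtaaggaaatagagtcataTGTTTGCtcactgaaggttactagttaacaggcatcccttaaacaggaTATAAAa
Apoa1, chr9:46228430-46228579: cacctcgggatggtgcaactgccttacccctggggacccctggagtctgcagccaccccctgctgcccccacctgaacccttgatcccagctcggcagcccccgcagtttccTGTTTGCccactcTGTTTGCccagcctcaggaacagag
Apoa4, chr9:46240594-46240695: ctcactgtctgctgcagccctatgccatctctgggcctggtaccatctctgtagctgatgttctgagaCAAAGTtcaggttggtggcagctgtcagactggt
Apob, chr12:7977498-7977647: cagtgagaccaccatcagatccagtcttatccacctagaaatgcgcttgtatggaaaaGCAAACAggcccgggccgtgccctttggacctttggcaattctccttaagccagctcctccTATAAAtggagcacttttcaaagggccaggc

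The promoters used were 12 RefSeq promoters of 9 of the 10 genes, 3 of them of *Apoe* and 2 of *Rbp4*, and that of *Ttr* was not used here. The 250 bases before each start were searched on both strands for these motifs, for a second FOXA form with the letters TGTTTAC and for a GATA motif with the letters AGATAA. The *Afp* promoter held the TATA box at 7 and the FOXA motif at 55 bases before its RefSeq start. The *Apoa1* promoter held 2 copies of the FOXA motif, at 88 and 75 bases before its RefSeq start. *Apob* held the TATA box at 60 and the FOXA motif at 121 bases, and *Apoa4* held the partial HNF4 motif at 182 bases, also from the RefSeq start. The GENCODE start lies upstream of the RefSeq start in *Apoa1* (46228580 against 46228630), *Apob* (7977648 against 7977677) and *Apoa4* (46240696 against 46240844). The sequences shown for these genes end there, so their motifs lie nearer to the printed end than the distances say. In *Afp* the GENCODE start, 90490737, lies downstream of the RefSeq start, 90490714.

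The first FOXA form was found in *Afp*, *Apoa1* and *Apob*, and it occurs in 4.3% of all 32851 RefSeq promoters. The TATA box was found in *Afp*, *Apob*, *Apoe* and *Rbp4* and in 12.4% of all promoters, and the matches on the opposite strands of 1 *Apoe* promoter overlap each other. The partial HNF4 motif was found in *Apoa4* and in 12.6% of all promoters. The second FOXA form was found at 1 start of *Rbp4* and in 3.17%, and the GATA motif in 0 of the genes and in 9.99%. These matches describe letters in the window and not bound sites.

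Together the 10 genes summed to 1218 FPKM in wild type, 1190.05 in tw18/+ and 1607 in tw18/tw18, or 0.274, 0.262 and 0.419% of all FPKM. The total of all FPKM was 444064, 455078 and 383409, so the share in tw18/tw18 rests on a smaller total. Of the 10, 9 were highest in tw18/tw18, a pattern held by 26.8% of the 5399 genes with FPKM of at least 10 in all libraries. *Afp* was lowest there, as were 57.9% of those genes. *Apoe* and *Apoa1* were the most abundant of the 10 in every library, and *Amn* the least. In wild type *Cubn* (106.3 FPKM) and *Afp* (106.1) were neighbours in the order of levels, ranks 628 and 629 of the table, and in tw18/tw18 they stood at ranks 394 and 1101. *Rbp4* stood at rank 822 in wild type, 909 in tw18/+ and 327 in tw18/tw18, next to *Ttr* at rank 329. *Afp* made up 8.71% of the summed FPKM of the 10 in wild type, 9.27% in tw18/+ and 3.70% in tw18/tw18. In bulk RNA, fewer cells of a type and less RNA per cell cannot be told apart.

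**Figure D1:**
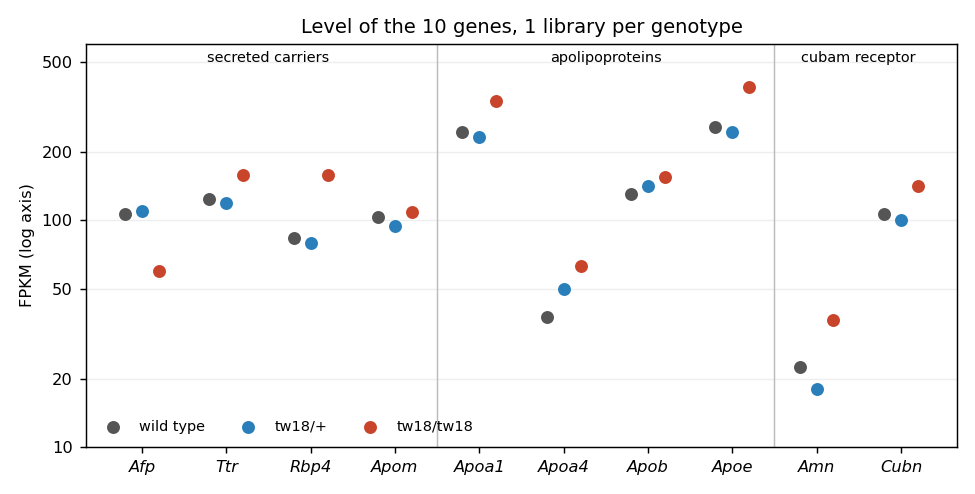
FPKM of the 10 genes in the wild type, tw18/+ and tw18/tw18 libraries, on a log scale, with 1 point per library. *Afp* is lowest in tw18/tw18, at 59.5 FPKM, and the other genes have their highest point in tw18/tw18.

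Among the secreted carriers, *Afp* and *Rbp4* lay at opposite ends. *Afp* (chromosome 5, 90490737 to 90508907, plus strand, GRCm38) encodes alpha-fetoprotein, the major serum protein of the fetus and a classical marker of visceral endoderm. It measured 106 FPKM in wild type, 110.3 in tw18/+ and 59.5 in tw18/tw18. The wild type and tw18/+ libraries were alike and the tw18/tw18 library was well below both. The log2 ratio of tw18/tw18 to wild type was -0.83, with a 95% counting interval of -0.91 to -0.76, and 3.39% of the 5399 abundant genes had a lower ratio. These intervals are exact binomial intervals on fragment numbers estimated from the FPKM steps (3006 fragments of *Afp* in wild type and 2343 in tw18/tw18). They cover counting error only and not the spread between embryos.

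*Rbp4* (chromosome 19, 38116629 to 38125281, minus strand) encodes the retinol binding protein of serum. It measured 83.8 FPKM in wild type, 79.0 in tw18/+ and 159 in tw18/tw18. Again the first 2 libraries were close, but here the homozygote was the high one, with a log2 ratio to wild type of 0.93 (0.83 to 1.03), above that of 96.8% of the abundant genes. *Stra6*, the membrane receptor through which cells take retinol from RBP4, measured 8.16, 12.9 and 59.0 FPKM, a log2 ratio of tw18/tw18 to wild type of 2.85.

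*Ttr*, on chromosome 18, encodes transthyretin, which carries thyroid hormone and binds RBP4 in serum. It measured 124 FPKM in wild type, 119 in tw18/+ and 158 in tw18/tw18, a log2 ratio of tw18/tw18 to wild type of 0.35 (0.27 to 0.43). The partner genes *Rbp4* and *Ttr* thus differed by unequal amounts, and the ratio of *Rbp4* to *Ttr* in FPKM was 0.674 in wild type, 0.664 in tw18/+ and 1.01 in tw18/tw18. The ratio of *Afp* to *Ttr* was 0.853, 0.927 and 0.377. *Apom* (chromosome 17, 35128997 to 35132050, minus strand) encodes the apolipoprotein M of high density lipoproteins, which carries sphingosine 1-phosphate, and was the only member on the chromosome of the deletion. It measured 103 FPKM in wild type, 94.1 in tw18/+ and 108 in tw18/tw18. Its log2 ratio of tw18/tw18 to wild type was 0.07, and the counting interval of -0.03 to 0.17 included 0. Of the scalings run this held for the deposited one and not for others, since the ratio was 0.12 (0.02 to 0.22) with libraries centred on the median gene and 0.28 (0.19 to 0.38) with equal sums of FPKM.

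The 4 genes grouped here as apolipoproteins were all higher in tw18/tw18 than in wild type, by log2 ratios of 0.25 to 0.75. The sum of these 4 was 671.9, 669.5 and 943.8 FPKM. *Apom*, also an apolipoprotein, was grouped with the carriers above, with a log2 ratio of 0.07 (-0.03 to 0.17). *Apoe* (chromosome 7, 19696109 to 19699188, minus strand), the ligand through which remnant lipoproteins are taken up, was the most abundant member. It measured 258 FPKM in wild type, 246 in tw18/+ and 388 in tw18/tw18, a log2 ratio of tw18/tw18 to wild type of 0.59 (0.54 to 0.64). *Apoa1* (chromosome 9, 46228580 to 46230466, plus strand), the main protein of high density lipoproteins, measured 246, 233 and 337 FPKM, a log2 ratio of 0.46 (0.40 to 0.52). In both genes the wild type and tw18/+ libraries lay close together and tw18/tw18 lay above them.

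*Apoa4* (chromosome 9, 46240696 to 46243459, plus strand), an apolipoprotein of triglyceride-rich particles, measured 37.3 FPKM in wild type, 49.6 in tw18/+ and 62.6 in tw18/tw18. It was 1 of 2 members, with *Apob*, whose level was ordered wild type, tw18/+, tw18/tw18. Its log2 ratio to wild type was 0.41 (0.30 to 0.53) in tw18/+ and 0.75 (0.64 to 0.86) in tw18/tw18. *Apob* (chromosome 12, 7977648 to 8016835, plus strand), the structural protein of each very low density lipoprotein particle, measured 131, 142 and 156 FPKM, and its log2 ratio of tw18/tw18 to wild type was 0.25 (0.22 to 0.27). *Apob* had the most fragments of the 10 genes, 25107 in wild type and 41411 in tw18/tw18, so its small difference lay outside counting error.

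The machinery that loads lipid onto APOB was read in the same libraries. Of 13 listed genes of lipoprotein assembly, 11 reached 1 FPKM in tw18/tw18 or wild type, 4 of them were at least 2-fold higher in tw18/tw18 and 0 were 2-fold lower, against 15.1% and 6.94% of all genes compared. The 4 were *Soat2*, which esterifies cholesterol, *Dgat2*, which makes triglyceride, *Mia2*, which helps load large cargo at the endoplasmic reticulum, and *Tm6sf2*. *Soat2* measured 14.1, 16.1 and 28.5 FPKM and *Dgat2* 7.33, 12.8 and 17.3. The counting intervals of the log2 ratios of *Soat2* (0.85 to 1.17), *Mia2* (0.81 to 1.31) and *Tm6sf2* (0.85 to 3.65, from 6 fragments in wild type) reached below 1. *Mttp*, the transfer protein that puts lipid on nascent APOB, measured 28.0, 29.5 and 51.6 FPKM, a log2 ratio of tw18/tw18 to wild type of 0.88, larger than that of *Apob* itself. *Sar1b*, a GTPase of the vesicles that carry lipoproteins out of the endoplasmic reticulum, went the other way, at 39.4, 34.4 and 21.2 FPKM (log2 ratio -0.89). The median log2 ratio of the list was 0.33, against -0.04 over all genes with FPKM of at least 1 in both libraries. *Apobec1*, which edits the *Apob* transcript, was listed at 0 in wild type and measured 0.376 and 0.968 FPKM in the other two.

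The cubam receptor, made of amnionless and cubilin, is the endocytic complex of the apical face. *Amn* (chromosome 12, 111271095 to 111276426, plus strand) encodes the membrane anchor, and measured 22.5 FPKM in wild type, 18.0 in tw18/+ and 36.3 in tw18/tw18. The heterozygote was the lowest library and the homozygote the highest, with log2 ratios to wild type of -0.33 (-0.50 to -0.15) and 0.69 (0.54 to 0.84). *Cubn* (chromosome 2, 13276338 to 13491813, minus strand) encodes the ligand-binding subunit and measured 106, 100.1 and 142 FPKM, a log2 ratio of tw18/tw18 to wild type of 0.41 (0.39 to 0.44). The ratio of *Cubn* to *Amn* in FPKM was 4.72 in wild type, 5.57 in tw18/+ and 3.90 in tw18/tw18.

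The receptors and adaptors that work with cubam were listed as 12 endocytic partners, of which 9 were higher in tw18/tw18 than in wild type, with a median log2 ratio of 0.56. Of all genes with FPKM of at least 1 in both libraries, 5346 of 11344 were higher. *Fcgrt*, the receptor that recycles albumin and IgG, was the 1 gene of the 12 past 2-fold, at 1.54, 1.73 and 5.49 FPKM, against 15.1% of all genes compared that were 2-fold higher. *Lrp2*, the giant receptor megalin, measured 22.0, 22.9 and 30.7 FPKM, and its adaptor *Dab2* measured 179.2, 179.0 and 311 FPKM. *Tfrc*, the transferrin receptor, was lower in tw18/tw18, at 27.9, 28.5 and 14.9 FPKM. *Lrp2*, *Dab2*, *Tfrc*, *Mttp*, *Sar1b* and *Apobec1*, and *Rhox5* above, were named for their role after their values were seen.

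A gene was counted as higher or lower when it differed by at least 2-fold and reached 1 FPKM in either library. Between tw18/tw18 and wild type, 0 of the 10 genes were 2-fold higher, against 15.1% of the 12917 genes compared, and 0 were 2-fold lower, against 6.94%. Their median log2 ratio was 0.44. Between tw18/tw18 and tw18/+, 2 of the 10 were 2-fold higher, against 14.9% of 12846 genes, and 0 were lower, against 5.65%. The 2 were *Rbp4*, with a log2 ratio of 1.01 (0.92 to 1.10), and *Amn*, with 1.02 (0.87 to 1.16), and the median of the 10 was 0.46. Both intervals reach below 1, so counting error alone does not settle the side of 2-fold on which these genes lie. Of the 5399 abundant genes, 97.4% had a lower ratio of tw18/tw18 to tw18/+ than *Rbp4*, and 97.4% a lower one than *Amn*.

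**Figure D2:**
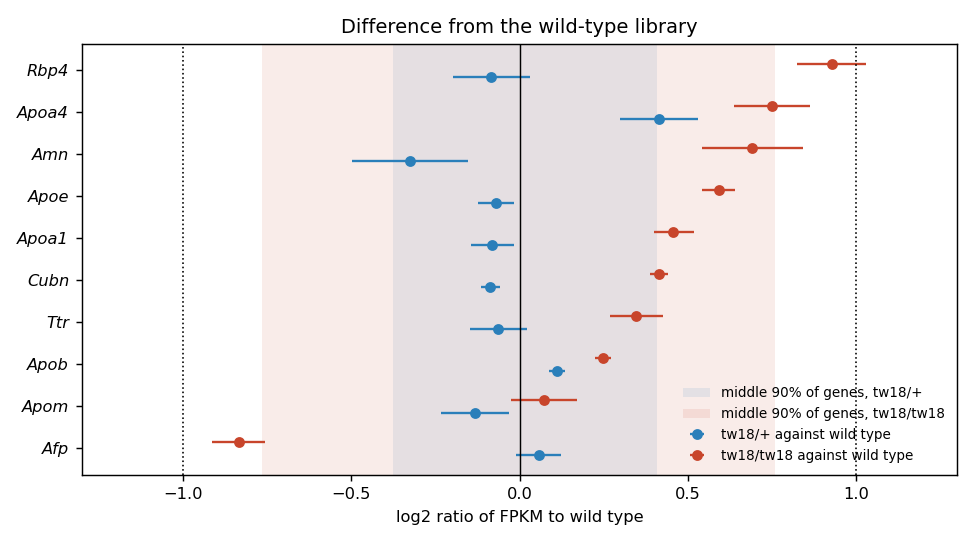
Log2 ratios of FPKM of the 10 genes in tw18/+ and tw18/tw18 against wild type, with 95% counting intervals as bars, dotted lines at 2-fold and shaded bands for the middle 90% of abundant genes. *Afp* lies at -0.83 for tw18/tw18 against wild type while the other genes lie between 0.07 and 0.93.

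The heterozygote was close to wild type for most of the genes. Between tw18/+ and wild type, 0 of the 10 were 2-fold higher, against 4.7% of 12426 genes, and 0 were lower, against 5.02%. The median log2 ratio of the 10 was -0.07, with 7 lower and 3 higher, and the range ran from -0.33 for *Amn* to 0.41 for *Apoa4*. In the deposited scaling the counting intervals of *Afp*, *Ttr* and *Rbp4* included 0 and those of the other 7 excluded it. These intervals leave out the spread between embryos. The middle 90% of abundant genes spanned -0.38 to 0.41, so *Apoa4* lay just outside it and the other 9 inside. The comparisons of tw18/tw18 with wild type and with tw18/+ share the tw18/tw18 library.

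The neighbours of the apolipoprotein and albumin families on their chromosomes did not share one pattern. Beside *Afp*, the related carriers *Alb* and *Afm* were listed at 0 in all 3 libraries. A listed 0 need not be a low count, since *Lars2*, at 11199 FPKM in wild type, was also listed at 0 in tw18/tw18. In the *Apoa1* cluster, *Apoc3*, which lies between *Apoa1* and *Apoa4*, measured 0.553, 2.47 and 4.78 FPKM, from 4, 25 and 48 fragments. *Apoa5*, an activator of triglyceride clearance at the end of the cluster, measured 1.56, 0.268 and 1.03 FPKM, from 54, 13 and 50 fragments. The ratio of *Apoa1* to *Apoa4* in FPKM was 6.60 in wild type, 4.69 in tw18/+ and 5.39 in tw18/tw18. In the *Apoe* cluster, *Apoc1* measured 12.5, 16.8 and 25.1 FPKM, 2.004 times higher in tw18/tw18 than in wild type (log2 interval 0.65 to 1.36), while *Apoc2*, the cofactor of lipoprotein lipase, measured 154, 128 and 149.7 FPKM (log2 ratio -0.04). The ratio of *Apoe* to *Apoc2* was 1.68, 1.91 and 2.59 in the 3 libraries. *Apoc4* measured 0.419 and 0.503 FPKM in wild type and tw18/tw18 and was listed at 0 in tw18/+.

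**Figure D3:**
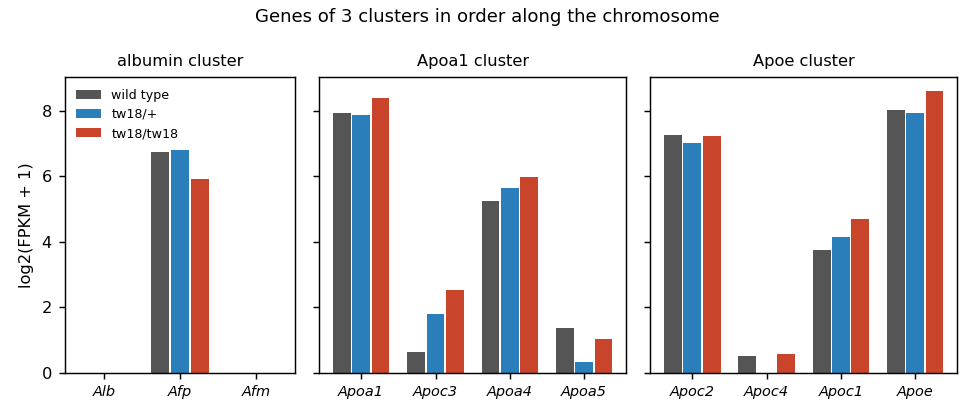
log2(FPKM + 1) of the genes of the albumin, *Apoa1* and *Apoe* clusters in chromosome order, with 1 bar per library. *Alb* and *Afm* have no bars because they are listed at 0, and the tw18/tw18 bar is the highest of the 3 for *Apoc3* and *Apoc1* but not for *Apoc2*.

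Among the other apolipoproteins, 6 of 11 listed genes reached 1 FPKM, 4 were at least 2-fold higher in tw18/tw18 than in wild type and 0 were lower, against 15.1% and 6.94% of all genes. The 4 were *Clu*, *Apoa2*, *Apoc1* and *Apoc3*. *Clu*, a secreted chaperone that travels with high density lipoprotein, measured 5.53, 6.22 and 30.7 FPKM. *Apoa2* measured 0.695, 7.17 and 6.71 FPKM, so it was low in wild type alone, where it rested on 5 fragments. Of 25 listed serum proteins, 10 were compared, and *Serpinf2* (1.02, 4.19 and 2.83 FPKM) and *F10* (0.752, 1.06 and 1.66) were 2-fold higher in tw18/tw18 than in wild type. *Fga*, the fibrinogen alpha chain, was the 1 serum protein 2-fold lower, at 1.90, 1.85 and 0.404 FPKM. The counts of 2 higher and 1 lower of 10 are near the shares over all genes, 15.1% and 6.94%, and the intervals of *Serpinf2* (0.87 to 2.07) and *F10* (0.47 to 1.83) reached below 1.

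Genes that receive or hydrolyse lipoproteins differed in both directions. Of 12 listed, 11 were compared, and *Lrp1*, *Abca1* and *Pltp* were at least 2-fold higher in tw18/tw18 than in wild type. *Lrp1*, a receptor for APOE, measured 9.12, 11.3 and 25.5 FPKM. *Abca1*, which gives lipid to APOA1, measured 1.98, 2.98 and 7.21 FPKM, and *Pltp*, which transfers phospholipid between lipoproteins, measured 0.561, 3.91 and 4.45. *Lpl*, lipoprotein lipase, was the 1 gene 2-fold lower, at 5.72, 4.71 and 1.70 FPKM. Over all genes 15.1% were higher and 6.94% lower. The median log2 ratio of the list was -0.17.

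Of 11 endoderm transcription factors, 10 were compared and 9 were higher in tw18/tw18 than in wild type, against 5346 of 11344 genes with FPKM of at least 1 in both libraries. The median log2 ratio was 0.54. Of the 10, 2 were 2-fold higher, against 15.1% of all genes compared. *Hhex*, a homeobox gene of the anterior visceral endoderm, was 1 of them, at 7.16, 7.79 and 19.1 FPKM. Of 8 further visceral endoderm markers, 3 were 2-fold higher, set beside the same 15.1%. They were *Cer1* (46.6, 61.3 and 139.5 FPKM), *Krt19* (15.2, 22.2 and 40.3) and *Ihh* (1.75, 0.955 and 3.69). The counting interval of the log2 ratio of *Ihh* (0.65 to 1.54, from 59 fragments in wild type) reached below 1. The median log2 ratio of the 8 markers was 0.85, with 7 of 8 higher. The median of the 10 transport genes, 0.44, was smaller than that of these markers. Medians of the other marker lists, described below, ran from -0.89 for epiblast to 1.65 for decidua. Parietal endoderm stood at 1.07 and extra-embryonic ectoderm at 1.29.

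The makeup of the libraries differed beside these values, and the part of this in the results was not tested. Epiblast markers summed to 1893, 2001 and 970.3 FPKM in wild type, tw18/+ and tw18/tw18, with 1 of 11 genes 2-fold higher and 5 lower in tw18/tw18 than in wild type. The shares to set beside this and the counts that follow are 15.1% higher and 6.94% lower of all genes compared. Parietal endoderm markers summed to 424, 529.6 and 1054 FPKM, with 7 of 9 genes 2-fold higher. Extra-embryonic ectoderm markers summed to 30.2, 25.4 and 61.8 FPKM, with 6 of the 8 genes compared 2-fold higher. Endothelial markers summed to 42.0, 26.7 and 86.1 FPKM, with 5 of 8 genes 2-fold higher. Decidua markers summed to 1558, 205 and 554 FPKM, with 8 of 10 genes 2-fold higher and 1 lower, *Prl8a2*, which made up 1504 FPKM of the wild type sum. Macrophage markers, a cell type that also makes *Apoe*, summed to 23.3, 15.4 and 42.1 FPKM, with 3 of the 6 genes compared 2-fold higher, and *C1qa* was listed at 0 in wild type. In several of these lists some genes counted had intervals of the log2 ratio that reached inside 2-fold. Among them were the epiblast genes *Dnmt3b* (-1.02 to -0.98) and *Fgf4* (0.75 to 1.28). Of parietal endoderm they were *Col4a1* (0.97 to 1.04), *Col4a2* (0.96 to 1.07) and *Thbd* (0.81 to 1.34). *Lars2*, read at 11199 FPKM in wild type and 9689 in tw18/+, was listed at 0 in tw18/tw18.

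**Figure D4:**
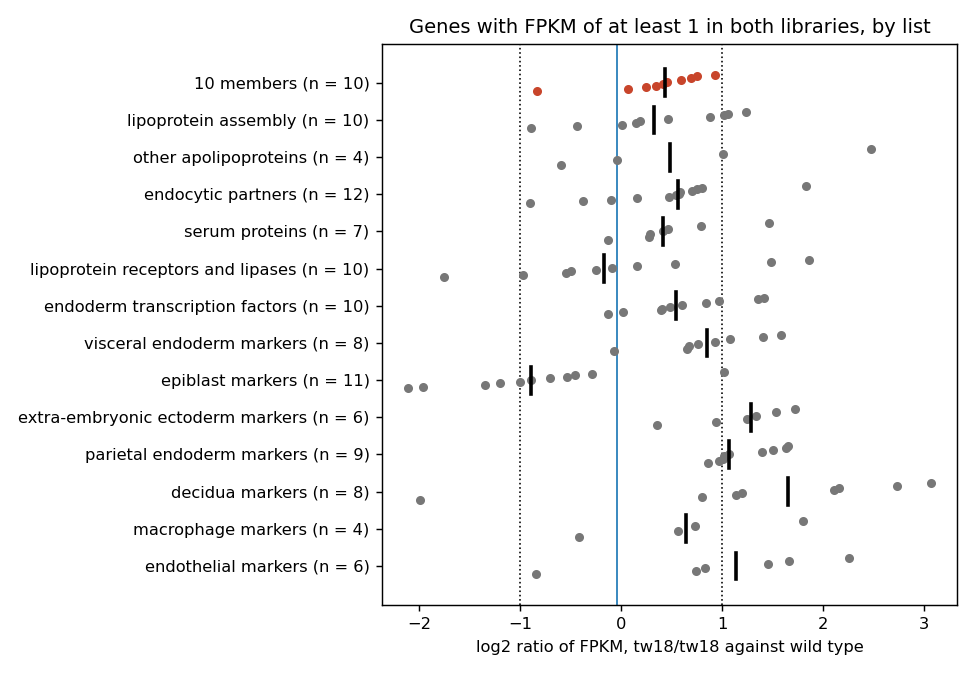
Log2 ratios of FPKM, tw18/tw18 against wild type, for the 10 genes and each gene list, with 1 point per gene of at least 1 FPKM in both libraries, a bar at each list's median, a blue line at the median of all genes and dotted lines at 2-fold. The 10 genes lie right of 0 except *Afp*, with a median of 0.44, while epiblast markers lie mostly left of 0, with a median of -0.89.

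The 5 genes of the 5399 abundant genes whose pair of ratios lay nearest to the medians of the 10 were *Nomo1*, *Cenpb*, *Myh9*, *Dvl3* and *Tbc1d13*, measured as the distance between pairs of log2 ratios over the 3 libraries. *Myh9*, nonmuscle myosin heavy chain, was the most abundant of them, at 79.9, 75.5 and 108.5 FPKM. The 10 genes themselves lay at a median distance of 0.31 from their own medians, within which 634 of 5389 other abundant genes also lay.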

How the data were processed

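The authors mapped strand-specific reads of total RNA to mm10 (GRCm38) with TopHat2 and Bowtie 1.0.0 and calculated FPKM with Cuffdiff of Cufflinks 2.2.1, and deposited 1 table of FPKM for 23421 genes in 3 libraries. The annotation and library normalization are not given in the sources used here.

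Ratios and intervals were computed in scipy 1.17.1, numpy 2.4.6 and pandas 2.3.3 under Python 3.11.15, with plots by matplotlib 3.10.9. Log2 ratios had no pseudocount. Depth was estimated from the steps of low FPKM values of genes with a single transcript of at least 600 bp. A single fragment per kilobase was worth 0.0728 FPKM in wild type, 0.052 in tw18/+ and 0.0524 in tw18/tw18, and 84.5 to 87.0% of the values used lay within 0.2 of whole fragments. The fragment length allowance that scored best, 0 bp, lay at the edge of the range tried, so fragment numbers are approximate. Intervals are Clopper-Pearson at 95%. The scripts were tested on simulated data. Positions are from GENCODE M21. *Apoa4* and *Cubn* overlap annotated genes on the opposite strand.

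The 10 genes and all lists were chosen with earlier results of these data known. Genes named were the 10, up to 4 per list past 2-fold with the highest FPKM, cluster neighbours within 50 kb, and the 5 nearest in pattern. The alternatives were a pseudocount of 1, other FPKM minimums, a log2 threshold of 2, centring, and equal sums of FPKM with and without *Lars2*, the last added after seeing the data. The *Ttr* promoter was not used here. Some genes of the lists are not reported here, though they count in the lists' totals.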

Additional observations from a re-analysis of the deposited data

How the results depend on the processing

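In each of the 3 comparisons 0 of 50 values of single genes changed sign, but most of these values could not have done so. A pseudocount cannot change the sign of a ratio. Rescaling raised all ratios of tw18/tw18 to wild type and to tw18/+, so only *Afp*, below 0, was put to the test there, and it stayed below 0. For tw18/+ against wild type rescaling lowered all ratios, so only the 3 genes above 0 were put to the test, and they stayed above 0. Sizes were less stable, since some rescaled values in each comparison lay outside the counting interval of the main ratio. With 1 library per genotype no replicate could be left out. No paired analysis was possible because there was 1 library per genotype. The number of the 10 genes 2-fold higher in tw18/tw18 than in wild type went from 0 to 1, *Rbp4*, when libraries were scaled to equal sums of FPKM, and also with equal sums without *Lars2*, an alternative chosen after seeing the data. Against tw18/+ the number went from 2 to 1, *Rbp4*, with a pseudocount of 1 and to 0 at a log2 ratio of at least 2. The median log2 ratio of tw18/tw18 to wild type, 0.44, was 0.48 with libraries centred on the median gene, 0.65 with equal sums and 0.61 with equal sums without *Lars2*, and that of tw18/tw18 to tw18/+, 0.46, was 0.50, 0.70 and 0.67. Equal sums shifted all ratios of tw18/tw18 to wild type by 0.21. Over all genes, 1946 were higher and 896 lower in tw18/tw18 than in wild type. These numbers were 1227 and 532 with a pseudocount of 1, 832 and 382 with a minimum of 5 FPKM, 4072 and 1825 without a minimum, 2493 and 631 with equal sums, and 744 and 295 at a log2 ratio of at least 2. The spread between embryos is unknown. Each of the 10 genes had at least 526 fragments in every library.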
